A study of Mus musculus with 4 samples.

Results

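Ly6c2, Plac8, Maf, Ms4a7, Ms4a6c, Folr2 and Cd163 are 7 genes used to tell monocytes, macrophages that arise from them and interstitial macrophages of the lung from resident alveolar macrophages. Of these 7 members, chosen by symbol, 6 had a probe whose accession mapped to them, out of 20802 genes with a matched probe, and 5 gave a signal well above background on all 4 arrays. None of the 5 detected members passed the test of a difference between genotypes. RNA from BALF cells (cells washed out of the airspaces) was hybridized to 4 one-color arrays. One group was 2 samples from wild-type mice and the other 2 samples from mice with a targeted disruption of S1pr2 in the whole body (S1pr2-/-), so that no cell type was singled out. All animals had received intraperitoneal bleomycin at 0.035 U/g, an agent that injures the lung and leads to fibrosis, repeatedly, and the cells were taken on day 22. The mice were young adults of a mixed background that included C57BL/6J, backcrossed a single time, and the wild-type mice were littermates. There was no saline group among these arrays, so only the genotype could be compared. The samples are labelled alveolar macrophages, while the RNA came from BALF cells that were not sorted. The sources used here do not state how many mice gave the RNA of an array, so the p-values below cover the spread between these samples only, which may be technical.

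When alveolar macrophages are lost in lung injury, blood monocytes enter the airspace and turn into macrophages there. Entering classical monocytes carry Ly6C and the chemokine receptor Ccr2, and as they mature they lose Ly6c2 and Plac8 and gain macrophage genes such as Apoe and the complement C1q genes. Interstitial macrophages lie in the lung tissue around airways, vessels and nerves and are marked by Folr2, Cd163, Lyve1 and the transcription factor Maf in part of the population. Resident alveolar macrophages are marked by Siglecf, Pparg and Marco. None of these genes is restricted to one cell type, and Ly6C proteins are also carried by some lymphocytes and granulocytes.

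The unit of all values below is the processed signal of a probe divided by the 75th percentile of the non-control spots of its array, so that a value of 1 equals that percentile. Such a value depends on the probe as well as on the transcript, and it is compared between arrays but not between genes. Differences are on the log2 scale, arrays labelled S1pr2-/- minus wild-type arrays, tested with limma over 27154 probes with Benjamini-Hochberg adjustment over all of them. The share of probes well above background ran from 67.6% to 72.1% by array. The S1pr2 probe itself gave 0.915 and 0.896 in wild-type samples against 6.35 and 5.83 in samples labelled S1pr2-/-, so it went against the label. Where this probe lies relative to the disrupted part of the gene is not given in the sources used here, so the labels were not checked by it. Every direction below follows the labels and would turn if they were exchanged. The macrophage genes of the label were present: all 16 alveolar macrophage genes examined, Siglecf, Pparg and Marco among them, and all 6 measured pan-macrophage genes were well above background on all 4 arrays. Of 30 interstitial macrophage genes, 27 were well above background on all 4 arrays, while Cd163 and Lyve1 were so on none.

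The start site regions of the 6 members found in the RefSeq table (build GRCm38.p6, 10 windows of 300 bases, from 250 bases before to 50 after a start; Maf had no entry) were searched on both strands for GGAAGT, a core bound by ETS factors such as PU.1, which macrophages need for their identity. It occurred in 5 of the 10 windows, from Ly6c2, Ms4a7, Ms4a6c and Folr2, and in 23.8% of all 32851 windows of that length. The longer form GAGGAAGT, which contains the first motif, was in both Ly6c2 windows, which overlap, and in no other member's, against 3.20% of all windows. The short site TGCTGA of Maf factors was in both Folr2 windows alone, against 19.5%, and the AP-1 site TGAGTCA in 1 of them, against 5.20%. Windows of the 3 members that shared the same order of arrays (below) are shown, only those that hold the motif, 5' to 3' on the strand of the gene, with GGAAGT or its reverse complement in capitals. The second windows of Ms4a7 and Folr2 held 0 matches and are not printed. A match is a description of the letters, not of a bound site.
Ms4a7 (chr19:11336097-11336396, minus strand): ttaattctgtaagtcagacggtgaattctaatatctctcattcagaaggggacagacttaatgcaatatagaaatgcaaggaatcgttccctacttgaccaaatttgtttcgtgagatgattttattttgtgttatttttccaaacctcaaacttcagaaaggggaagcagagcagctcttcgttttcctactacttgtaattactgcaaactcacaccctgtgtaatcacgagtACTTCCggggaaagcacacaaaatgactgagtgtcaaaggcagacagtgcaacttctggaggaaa
Ms4a6c (chr19:11469118-11469417, plus strand): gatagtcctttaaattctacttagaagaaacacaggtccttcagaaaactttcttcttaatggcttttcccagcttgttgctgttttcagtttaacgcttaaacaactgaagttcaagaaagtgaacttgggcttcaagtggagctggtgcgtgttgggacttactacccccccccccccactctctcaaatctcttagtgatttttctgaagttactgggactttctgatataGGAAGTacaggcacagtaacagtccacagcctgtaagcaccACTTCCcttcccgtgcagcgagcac
Folr2 (chr7:101857141-101857440, minus strand): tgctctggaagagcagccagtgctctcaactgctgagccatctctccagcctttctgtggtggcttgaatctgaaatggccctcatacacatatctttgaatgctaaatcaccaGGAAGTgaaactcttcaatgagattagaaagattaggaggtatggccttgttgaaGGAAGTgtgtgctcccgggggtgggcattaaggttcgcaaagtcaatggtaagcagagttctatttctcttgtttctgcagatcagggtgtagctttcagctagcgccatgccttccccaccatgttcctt
In these windows the motif occurred 1 time for Ms4a7, 2 times for Ms4a6c and 2 times for Folr2.

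Among the monocyte markers, Plac8 gave a lower signal in each sample labelled S1pr2-/- than in either wild-type sample. Plac8 encodes a small cysteine-rich protein found in classical monocytes and in several other leukocytes. Its brighter probe gave 1.25 and 2.00 in wild-type samples against 1.16 and 0.640 in samples labelled S1pr2-/-. Wild-type replicate 2 was the highest and S1pr2-/- replicate 2 the lowest, while the remaining arrays, wild-type replicate 1 and S1pr2-/- replicate 1, lay close together. On the log2 scale the means were 0.66 ± 0.48 (SD, n = 2) and -0.22 ± 0.61 (SD, n = 2), a difference of -0.87 (standard error 0.431, 95% interval -2.18 to 0.43, adjusted p = 0.587 from limma). The dimmer probe of Plac8 gave 0.0715 and 0.106 against 0.0663 and 0.0444, with the same order of arrays and a difference of -0.68 (standard error 0.321, adjusted p = 0.577 from limma). Both probes therefore separated the groups without passing the test. With each array left out in turn the difference of the brighter probe lay between -1.30 and -0.45, its highest value being that without S1pr2-/- replicate 2.

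Ly6c2, the gene of the Ly6C antigen by which inflammatory monocytes are sorted, had no probe matched to its accessions and is not reported. Its neighbor Ly6c1, a close paralog whose transcript a probe may not tell from that of Ly6c2, was measured. The brighter Ly6c1 probe gave 5.77 and 10.95 in wild-type samples against 5.04 and 4.18 in samples labelled S1pr2-/-, a log2 difference of -0.79 (standard error 0.379, adjusted p = 0.581 from limma). The order of the arrays was that of Plac8. Its dimmer probe gave 0.639 and 1.37 against 0.568 and 0.434, again without overlap (-0.91, standard error 0.459, adjusted p = 0.590 from limma).

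**Figure D1:**
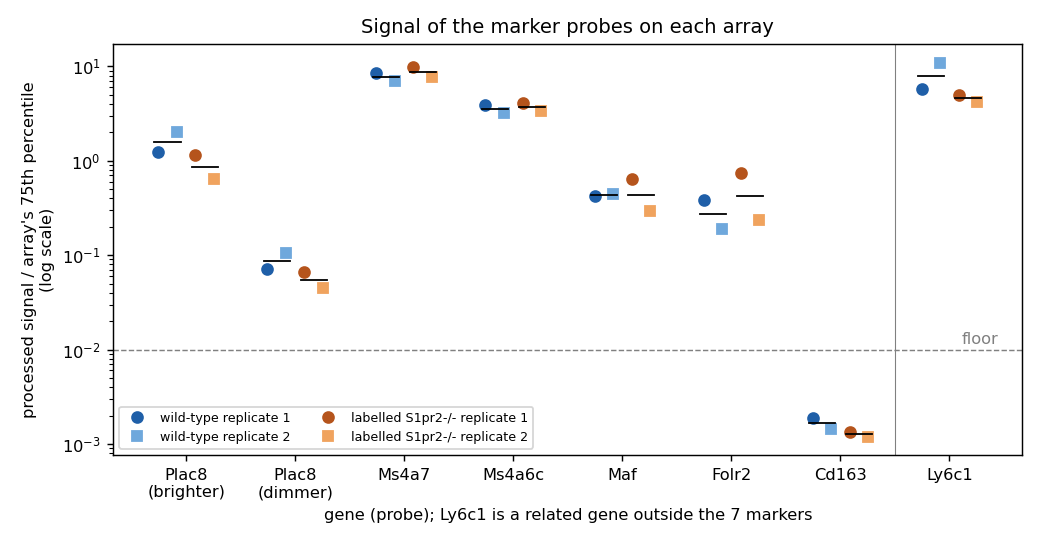
Signal of each marker probe on each array (in units of the 75th percentile of its array, log axis), with black bars at the mean of the log values of 2 arrays. Plac8 and Ly6c1 are lower on both arrays labelled S1pr2-/-, whereas Maf and Folr2 spread widely between the 2 arrays of that label; Cd163 lies under the floor of 0.01 on all 4 arrays, and heights of different probes cannot be compared.

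The markers of monocyte-derived macrophages, Ms4a7 and Ms4a6c, encode membrane proteins with 4 transmembrane spans that cluster on chromosome 19 with other members of their family. Ms4a7, which is carried by macrophages of monocyte origin and is low in resident alveolar macrophages, gave 8.60 and 6.97 in wild-type samples against 9.96 and 7.76 in samples labelled S1pr2-/-. The values overlapped, with S1pr2-/- replicate 1 highest and wild-type replicate 2 lowest. The log2 difference was 0.18 (standard error 0.192, 95% interval -0.40 to 0.76, adjusted p = 0.751 from limma). Without S1pr2-/- replicate 1 it was 0.0019 and without wild-type replicate 2 it was 0.03, while it was 0.33 without wild-type replicate 1 and 0.36 without S1pr2-/- replicate 2. Ms4a6c gave 3.87 and 3.22 in wild-type samples against 4.08 and 3.34 in samples labelled S1pr2-/-. The order of the arrays was that of Ms4a7. Its log2 difference was 0.07 (standard error 0.161, 95% interval -0.42 to 0.56, adjusted p = 0.900 from limma). For both genes the limma interval left out a change of 1 on the log2 scale in either direction. This rests on the variance model of limma. The methods' own test gave Ms4a7 a larger standard error, 0.236, and its interval is not given here. The highest array was 1.43-fold above the lowest for Ms4a7 and 1.27-fold for Ms4a6c.

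Of the interstitial macrophage markers, Folr2 encodes the folate receptor beta of macrophages. It gave 0.384 and 0.191 in wild-type samples against 0.741 and 0.238 in samples labelled S1pr2-/-. S1pr2-/- replicate 1 stood above the other 3 arrays, and wild-type replicate 1 was above S1pr2-/- replicate 2, so the groups overlapped. Folr2 had the same order of arrays as Ms4a7 and Ms4a6c, from S1pr2-/- replicate 1 over wild-type replicate 1 and S1pr2-/- replicate 2 to wild-type replicate 2. The share of all genes with this order was not counted, so it does not set these members apart. The log2 means of Folr2 were -1.88 ± 0.71 (SD, n = 2) and -1.25 ± 1.16 (SD, n = 2), and the difference was 0.63 (standard error 0.752, 95% interval -1.65 to 2.91, adjusted p = 0.776 from limma). This interval held changes of more than 1 on the log2 scale in both directions, so the arrays did not settle a direction for Folr2. Without S1pr2-/- replicate 1 the difference turned to -0.19, and without S1pr2-/- replicate 2 it was 1.45.

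Maf, the gene of c-Maf, a transcription factor that restrains the self-renewal of macrophages, gave 0.421 and 0.449 on the wild-type arrays. On the arrays labelled S1pr2-/- it gave 0.637 and 0.294, one above and the other below both wild-type arrays. The group means on the log2 scale were almost equal, at -1.20 ± 0.07 (SD, n = 2) and -1.21 ± 0.79 (SD, n = 2). The difference was -0.01 (standard error 0.441, 95% interval -1.35 to 1.33, adjusted p = 1.00 from limma), and it stands for 2 arrays that moved in opposite directions. Without S1pr2-/- replicate 2 it was 0.55, and without S1pr2-/- replicate 1 it was -0.57. Each of these values rests on a single array labelled S1pr2-/-.

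Cd163, the receptor by which macrophages take up complexes of haptoglobin and hemoglobin, did not rise above background in any sample. Its only probe gave 0.00188 and 0.00145 in wild-type samples against 0.00133 and 0.00120 in samples labelled S1pr2-/-. The lowest signals that counted as well above background were between 0.00575 and 0.00927, so all 4 values were below what the arrays could measure, and no fold is given.

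**Figure D2:**
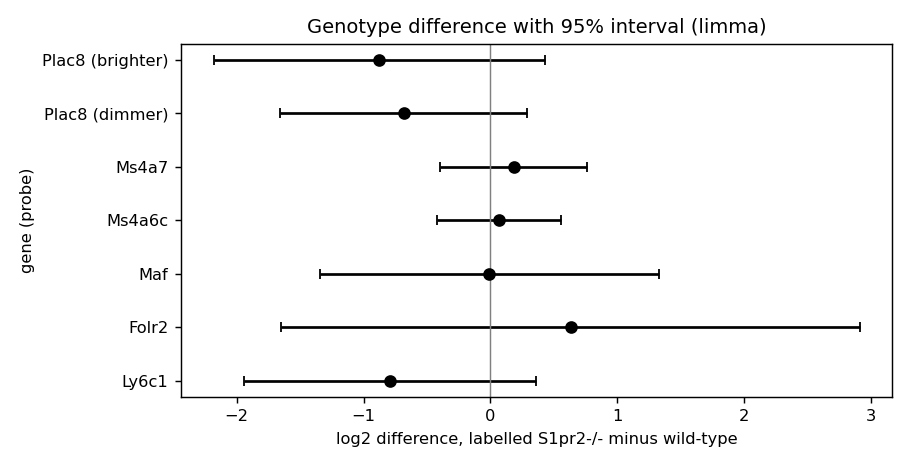
Log2 difference of each detected marker probe and of the brighter Ly6c1 probe, arrays labelled S1pr2-/- minus wild-type arrays, with the 95% interval from limma as bars (2 arrays against 2). All intervals hold 0; those of Ms4a7 and Ms4a6c are the narrowest of the markers, and that of Folr2, from -1.65 to 2.91, is the widest.

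Counted over the members by the brighter probe, limma called 0 of 5 lower and 0 of 5 higher at an adjusted p under 0.05, as it did for 0% of the 15424 genes tested in either direction. At an unadjusted p under 0.05 there were also 0 lower and 0 higher, against 5.95% of all genes lower and 4.54% higher, and the methods' own test likewise gave 0 and 0. The groups did not overlap for 1 member on the lower side (Plac8) and 0 on the higher side, against 21.9% and 22.2% of all genes. Without S1pr2-/- replicate 1 this was 2 on the lower side, and without S1pr2-/- replicate 2 it was 4 on the higher side. The shares of all genes above are for 4 arrays. None is given with an array left out, so these counts have no background. With 2 arrays per group an exact permutation test cannot give a two-sided p below 0.33. The median difference was 0.07 over the 5 members and 0 over all genes tested. For 4 of the 5 members, the larger gap between replicates of one genotype exceeded the difference between genotypes, and for Plac8 that gap, 0.86 between the arrays labelled S1pr2-/-, was close to its difference in size. This share was not counted over all genes, where the median size of the difference was 0.118. A gap between single arrays varies more than a difference between means of 2 arrays, so this count does not set the members apart. The median gap between the wild-type arrays was 0.303 on the log2 scale for the members and 0.120 for all genes, and between the arrays labelled S1pr2-/- it was 0.857 and 0.118.

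Plac8 and Ly6c1 are not confined to monocytes, and some markers of other leukocytes were also lower on the arrays labelled S1pr2-/-. The summed signals of 9 T cell genes were 20.1 and 21.9 on the wild-type arrays against 17.6 and 12.96 on the arrays labelled S1pr2-/-, and those of 9 neutrophil genes were 85.8 and 96.4 against 69.5 and 63.2. Both sums had the order of arrays of Plac8 and Ly6c1, an order that was not counted over all genes. Likeness of order over 4 arrays therefore links no list to Plac8. The order of the neutrophil sum rests on Retnlg. The other neutrophil genes together were higher on wild-type replicate 1 than on wild-type replicate 2. At an unadjusted p under 0.05 from limma, Lck, Trat1, Cd5 and Cd6 of the T cell genes and Cxcr2, Retnlg and Csf3r of the neutrophil genes were lower, and none of the genes of these lists was higher. The neutrophil genes did not all lie one way. The lower sum came with lower values of Retnlg (6.29 and 20.2 against 0.289 and 0.555), S100a9 (11.3 and 13.4 against 8.90 and 2.24) and Csf3r (48.5 and 44.2 against 36.9 and 39.4). Csf3r, the largest term of the sum, was highest on wild-type replicate 1 and lowest on S1pr2-/- replicate 1, unlike Plac8. Retnlg too was lowest on S1pr2-/- replicate 1. S100a8 and Ltf lay the other way, with differences of 0.25 and 0.36, and Camp was at -0.11. The summed signals of 6 eosinophil genes other than Siglecf, which alveolar macrophages share, were 2.54 and 7.96 against 0.123 and 0.211. This sum differed from the order of Plac8 only between the arrays labelled S1pr2-/-, where it was low on both. Of 6 eosinophil genes tested, Siglecf included, 5 were lower at an unadjusted p under 0.05 from limma, and the median difference was -4.50. The sums of NK cell genes (3.48 and 8.11 against 4.49 and 2.37) and B cell genes (1.64 and 0.532 against 0.692 and 0.484) did not have the order of Plac8. The sum of dendritic cell genes (67.4 and 64.2 against 55.0 and 56.1) also had another order. The 16 alveolar macrophage genes summed to 922 to 989 in wild-type samples and to 905 to 985 in samples labelled S1pr2-/-. The part of these cells in the Plac8 difference was not tested, and in bulk RNA fewer cells of a type and less RNA per cell cannot be told apart.

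**Figure D3:**
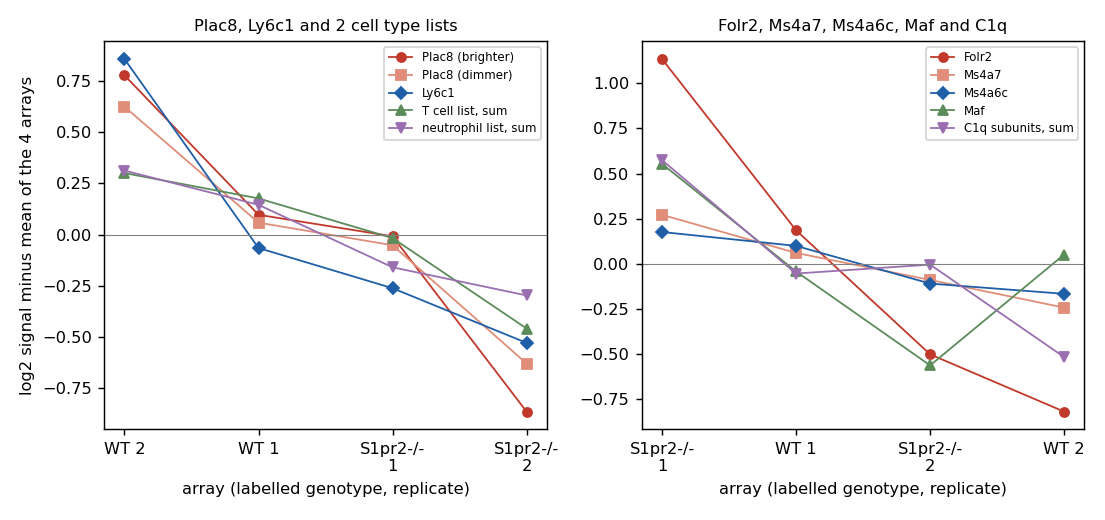
Log2 signal of each gene, or of each summed marker list, on each array minus its mean over the 4 arrays. In the left panel Plac8, Ly6c1 and the T cell and neutrophil sums descend from wild-type replicate 2 to S1pr2-/- replicate 2. The neutrophil sum does so through Retnlg. The share of all genes with the order of either panel was not counted. The sums of the other leukocyte lists had other orders and are not drawn. In the right panel Folr2, Ms4a7 and Ms4a6c are highest on S1pr2-/- replicate 1 and lowest on wild-type replicate 2, with Maf and the C1q sum drawn beside them.

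The remaining genes of the same cell types were examined in lists of known markers, which hold the members too. None of their genes passed an adjusted p of 0.05 in limma, so the counts below are at an unadjusted p under 0.05. They take each gene by its brightest probe and leave out dimmer probes. Over all genes tested, 5.95% were lower and 4.54% higher at that threshold, which the counts are to be read against. Of 16 classical monocyte genes tested, 2 were lower, 2 were higher and the median difference was -0.11. F10, coagulation factor X, was among the lower genes (-0.32, standard error 0.0935, adjusted p = 0.518 from limma). The higher ones were Mgst1 and Cd14, by 0.20 and 0.17. Ccr2, the receptor with which monocytes leave the marrow, gave 2.46 and 2.42 against 3.29 and 2.03. Its groups overlapped (0.08, standard error 0.276, adjusted p = 0.933 from limma), unlike those of Plac8.

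Of 9 non-classical monocyte genes, 2 were lower, Eno3 and Adgre4, and none was higher. The adhesion receptor gene Adgre4 gave 0.349 and 0.377 against 0.207 and 0.164 (-0.98, standard error 0.148, adjusted p = 0.509 from limma). Cx3cr1, the fractalkine receptor of patrolling monocytes and of many tissue macrophages, lay the other way, at 5.01 and 3.40 in wild-type samples against 7.47 and 5.78 in samples labelled S1pr2-/- (0.67, standard error 0.267, adjusted p = 0.544 from limma). The groups of Cx3cr1 did not overlap on its second probe either (0.88, standard error 0.149, unadjusted p = 0.00757 and adjusted p = 0.509 from limma). That probe was past the unadjusted threshold but is not in the count.

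Of 28 interstitial macrophage genes tested, 1 was higher, Tmem176a (0.53, standard error 0.176, adjusted p = 0.521 from limma), and none was lower. Dimmer probes of Tmem176b and Hpgd were also past that threshold on the higher side, and no dimmer probe of this list was on the lower side. Over this list the median difference was 0.30, and the groups did not overlap for 9 of the 28 genes on the higher side and 0 on the lower side, against 22.2% and 21.9% of all genes. The median was 0.11 without S1pr2-/- replicate 1 and 0.49 without S1pr2-/- replicate 2. The complement genes C1qa, C1qb and C1qc were among the 9. C1qa gave 10.7 and 7.48 in wild-type samples against 16.3 and 11.0 in samples labelled S1pr2-/- (0.58, standard error 0.303, adjusted p = 0.597 from limma). The lipid carrier gene Apoe ranged from 13.3 on wild-type replicate 2 to 71.4 on wild-type replicate 1, a gap between replicates larger than its difference of 0.64 (standard error 1.01).

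Of 14 genes of monocyte-derived alveolar macrophages, Mmp12, a macrophage elastase, and Arg1, arginase, were lower and Siglec1, a sialic acid receptor, was higher. Arg1, which the study also followed by PCR, gave 3.99 and 7.92 in wild-type samples against 2.36 and 1.33 in samples labelled S1pr2-/- (-1.67, standard error 0.506, adjusted p = 0.518 from limma). Arg1 had the order of arrays of Plac8, which was not counted over all genes. Siglec1 gave 7.27 and 7.50 against 8.89 and 9.38 (0.31, standard error 0.0640, adjusted p = 0.509 from limma).

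Within the families of the members, 11 Ms4a genes were tested, of which Ms4a4b and Ms4a13 were lower and none was higher. Ms4a4b, a gene of T cells, gave 3.75 and 3.67 against 2.79 and 2.37, while Ms4a6d, a neighbor of Ms4a6c in the family, gave 9.86 and 9.64 against 11.6 and 9.83. None of 6 tested genes of the Maf family and none of 9 of the Ly6 family was past the threshold. The groups did not overlap on the lower side for 6 of the Ly6 genes, against 21.9% of all genes, and the median of that list was -0.58. Among the 6 were dim probes of Ly6f (0.0793 and 0.0403 against 0.0345 and 0.0334) and Ly6i (0.0692 and 0.0653 against 0.0648 and 0.0592). Ly6k, also among them, gave 0.265 on wild-type replicate 1 but 0.0291 on wild-type replicate 2. The Ly6 median turned to 0.16 with normexp background correction, and it was -0.20 without wild-type replicate 1 and -0.23 without wild-type replicate 2. Among 7 genes of folate uptake and use, the transporter gene Slc46a1 was higher (0.33, standard error 0.0870, adjusted p = 0.514 from limma). Among 10 genes of heme and hemoglobin handling, the pathway of Cd163, the iron exporter gene Slc40a1 was higher (0.42, standard error 0.133, adjusted p = 0.519 from limma), and Hmox1, heme oxygenase, overlapped between genotypes (-0.03, standard error 0.277). Of 7 scavenger receptor cysteine-rich genes, the family of Cd163, the T cell genes Cd5 and Cd6 were lower.

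Of the further genes below, those from Nr4a1 to Fabp4 were named irrespective of their values. Ccr7, Krt18 and Pecam1 were named for passing the unadjusted threshold, and the collagen genes after their values were seen. The difference was 0.02 for Nr4a1, a regulator of non-classical monocytes, -0.02 for the mannose receptor gene Mrc1, -0.09 for Csf1r, the receptor of the macrophage growth factor, 0.11 for the gene of osteopontin, Spp1, -0.03 for Ms4a4c and -0.01 for Ms4a8a. Ms4a6b differed by -0.43 and Folr1 by 0.22. Of the alveolar macrophage genes, Siglecf differed by -0.15, Pparg by 0.21, Marco by -0.04 and Fabp4 by 0.58, each with an adjusted p over 0.5 in limma. Among further cell types, no B cell, NK cell or erythroid gene was past an unadjusted p under 0.05, and of the dendritic cell, epithelial and stromal genes Ccr7, Krt18 and Pecam1 were lower, with differences of -0.47, -0.45 and -0.44. Pecam1, a gene of endothelium and of some leukocytes, did not stand for its list of 6 fibroblast and endothelial genes, whose median was 0.35. Col1a1, Col1a2 and Col3a1 lay the other way, at 0.79, 0.62 and 0.76, without overlap and with adjusted p over 0.5 in limma. Their signals were low. S1pr2-/- replicate 2 lay near the wild-type arrays for Col1a1 (0.0353 and 0.0323 against 0.0868 and 0.0391) and Col1a2 (0.100 and 0.0912 against 0.2055 and 0.105). Col3a1 gave 0.0155 and 0.0152 against 0.0326 and 0.0207.

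**Figure D4:**
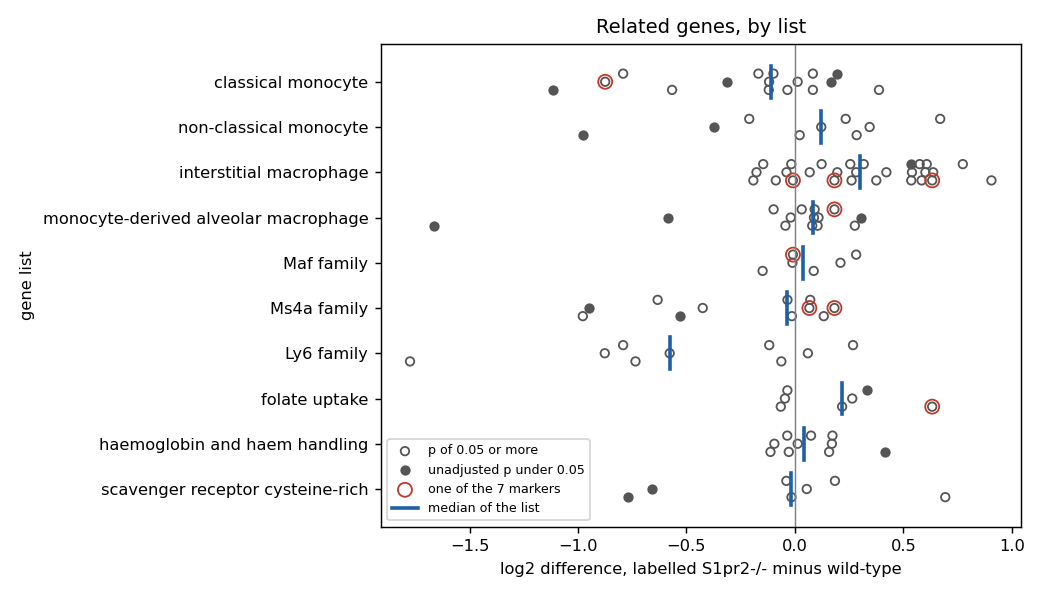
Log2 difference of every tested gene in each marker list, arrays labelled S1pr2-/- minus wild-type arrays, with a bar at the median of the list, filled points for an unadjusted p under 0.05 and rings around the markers described above. The interstitial macrophage genes have a median of 0.30 and the Ly6 family one of -0.58 (0.16 with normexp background correction), and no gene of any list passed the adjusted test.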

How the data were processed

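Each of 4 Agilent arrays (one color, whole mouse genome) held the RNA of one BALF sample. Per the labels the authors extracted intensities with Feature Extraction, whose processed signal is background-subtracted, and deposited them beside a table of normalized log2 values, used here as an alternative. The version in the file headers, 11.0.1.1, differed from 10.7.3.1 in the labels. Groups came from the sample labels.

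The processed intensity was divided by the 75th percentile of the non-control spots of its array, set to at least 0.01 and log2-transformed. Spots with outlier marks were left out and spots of a probe averaged. Of 39429 probes, 39359 were measured on all arrays, and 27154 had a signal well above background in both samples of one genotype or of both and entered the test, by limma 3.58.1 (R 4.3.3), 2 arrays against 2, with Benjamini-Hochberg adjustment over all of them. Accessions, versions removed, were matched to RefSeq symbols (69.6% of probes), and a gene was given by its brightest probe. The code was tested on simulated data. The members and lists were chosen with earlier results of these data known. Named genes were all members, S1pr2, 19 genes of the related lists and, per list, the gene with the largest difference in each direction among those at an unadjusted p under 0.05; F10, Cd14, Eno3, C1qc, Mmp12, Cd6 and the further T cell, neutrophil, collagen and Ms4a genes given were named after their values were seen. Some genes of this rule are not reported here. Promoter windows came from RefSeq. The number of arrays limits the precision. Alternatives were other scalings, background corrections, filters and probe rules, the methods' own test, a replicate block and leaving out each array.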

Additional observations from a re-analysis of the deposited data

How the results depend on the processing

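No member and no gene of any list passed an adjusted p of 0.05 under any alternative run, and Plac8 stayed lower in all of them. Genes at an unadjusted p under 0.05 on the higher side numbered 1135 with the percentile over probes detected on all arrays, and normexp background correction left 103 lower and 111 higher; the causes were not tested. Maf, whose difference was near 0, changed sign to 0.001 with that percentile, 0.0167 with quantile normalization and 0.0103 with normexp. The median of the non-classical monocyte list was 0.155 with quantile normalization, and that of the Ms4a family -0.20 with the mean over the probes of a gene.

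With each array left out in turn (the lone array being assumed to vary like the other genotype), the values lay between 600 and 828 (genes lower at an unadjusted p under 0.05), 399 and 798 (genes higher), 0 and 1 (members lower), 0 and 1 (members higher), 1 and 2 (members without overlap, lower) and 0 and 4 (members without overlap, higher). Differences lay between -0.57 and 0.55 for Maf, -0.076 and 0.21 for Ms4a6c, and -0.19 and 1.45 for Folr2, and the medians between 0.0025 and 0.16 for the non-classical and -0.19 and -0.046 for the classical monocyte list. Ms4a7 lay between 0.0019 and 0.36, and the interstitial macrophage median between 0.11 and 0.49. Without wild-type replicate 1 the groups did not overlap for 3 members on the higher side. The share of all genes without overlap is not given with an array left out, so these member counts have no background. Ms4a6c turned to -0.066 without wild-type replicate 2 and to -0.076 without S1pr2-/- replicate 1.

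The labels do not say that a number marks an experiment, and same-numbered deviations correlated at 0.187 over 2 pairs. With the replicate block, 0 probes passed the adjusted test, and 848 genes were lower and 636 higher at an unadjusted p under 0.05. A block cannot change differences in this balanced design, so the members' were those without it (Plac8 -0.87, Maf -0.01, Ms4a7 0.18, Ms4a6c 0.07, Folr2 0.63). Their adjusted p was at least 0.53 from limma. The standard error fell from 0.192 to 0.0633 for Ms4a7, from 0.161 to 0.0607 for Ms4a6c and from 0.752 to 0.215 for Folr2. For Maf it went from 0.441 to 0.400, and for Plac8 it rose from 0.431 to 0.507.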
